A study of Mus musculus with 12 samples.

Results

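The synaptotagmins are a family of membrane proteins with 2 C2 domains, and 10 of the 17 synaptotagmin genes found by mouse symbol among the 41388 genes of the deposited tables are described here: Syt1, Syt2, Syt3, Syt4, Syt5, Syt6, Syt7, Syt9, Syt10 and Syt11. They were matched by symbol to their Ensembl identifiers, and their counts and depth-scaled levels were followed in 12 libraries. The 10 were chosen by family name with their measured values in these libraries, counts and CPM in all 3 groups, already known, among them that Syt10 was one of the genes with the largest falls. Their levels, fold changes and calls are therefore a description, and no independent evidence of a direction. The 7 other genes, Syt8 and Syt12 to Syt17, were not part of that choice.

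The libraries came from primary cortical neurons of Swiss Webster mouse embryos at embryonic day 16, kept in culture and infected with a lentivirus on day 5 in vitro, with RNA taken on day 10 and depleted of ribosomal RNA. All 12 cultures carried a virus. Control vector cultures (4 libraries) received the control virus, labelled as an empty vector in 3 libraries and as a control vector in control vector 2. Htt-25Q cultures (4 libraries) received exon 1 of wild-type huntingtin with 25 glutamines. Htt-72Q cultures (4 libraries) received exon 1 of mutant huntingtin with 72 glutamines, a length in the Huntington disease range. The sources used here do not give the promoter that drives exon 1, or how many embryos stand behind each culture. The libraries also carry preparation numbers (22, 24, 26, 27 and 27_1) of unstated meaning. Nothing in the labels says that the 4 libraries of a group came from separate cultures, so the errors measure the spread between these libraries, which may be technical.

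Synaptotagmins sit in the membranes of synaptic vesicles, dense core vesicles or the cell surface and bind phospholipids and the SNARE complex, which fuses vesicles with the plasma membrane. In several members the C2 domains bind calcium, which couples an action potential to release. Related genes form subgroups by sequence: Syt1, Syt2 and Syt5 resemble the fast sensors of synaptic vesicles, Syt7 is a slow sensor of high affinity, Syt4 and Syt11 carry a substitution in a calcium-binding residue of the first C2 domain, and Syt3, Syt6, Syt9 and Syt10 share cysteines near the amino terminus that link them in pairs. The names Syt5 and Syt9 have been exchanged in part of the literature, and here they mean the genes ENSMUSG00000004961 and ENSMUSG00000062542.

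The stretch before the transcription start is shown for 3 genes on which the results turn: Syt10, which had the largest fall of the 10, its subgroup relative Syt3, which was not called in any comparison, and Syt1, the fast sensor. Each is the 250 bases upstream of a RefSeq start on GRCm38.p6, the build of the files, written 5′ to 3′ on the strand of the gene, with capitals marking a match to the CRE half-site TGACG, the AP-1 site TGANTCA or the NPAS4-type site TCGTG on either strand. Syt10 lies at chr15:89841861-89842110 on the minus strand, Syt3 at chr7:44383876-44384125 on the plus strand and Syt1 at chr10:109010976-109011225 on the minus strand.
Syt10: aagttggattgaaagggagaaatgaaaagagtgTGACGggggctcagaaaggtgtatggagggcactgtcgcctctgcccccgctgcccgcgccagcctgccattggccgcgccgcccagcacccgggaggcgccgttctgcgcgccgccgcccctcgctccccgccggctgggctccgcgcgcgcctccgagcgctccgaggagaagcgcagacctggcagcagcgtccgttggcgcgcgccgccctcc
Syt3: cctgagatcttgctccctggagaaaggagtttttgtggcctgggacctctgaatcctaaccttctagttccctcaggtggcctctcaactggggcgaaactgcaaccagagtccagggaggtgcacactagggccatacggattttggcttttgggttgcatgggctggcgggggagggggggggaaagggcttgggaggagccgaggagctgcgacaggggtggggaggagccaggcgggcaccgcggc
Syt1: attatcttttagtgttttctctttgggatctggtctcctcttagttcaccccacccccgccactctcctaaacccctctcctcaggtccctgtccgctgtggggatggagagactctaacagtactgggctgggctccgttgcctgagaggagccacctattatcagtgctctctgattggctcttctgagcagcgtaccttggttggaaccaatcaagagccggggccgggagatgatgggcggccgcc
The Syt10 stretch held a CRE half-site, the core of the element bound by CREB, at 217 to 213 bases before the start. It held no other marked match and no full CRE (TGACGTCA). The Syt3 and Syt1 stretches held none of the marked motifs. A CRE half-site stood in 17.8% of the 32851 RefSeq promoter stretches of the same length, an AP-1 site in 6.75% and an NPAS4-type site in 13.3%, and the full CRE, which contains the half-site, in 1.55%. Syt10 was rich in G and C (72%, with 32 CpG dinucleotides) against 62.4% in Syt3, 56.4% in Syt1 and a median of 52.4% over all the stretches. GC boxes (GGGCGG on either strand, in 32.7% of stretches) appeared 3 times in Syt10, once in Syt1 and not in Syt3. Promoter stretches were found for 7 of the 10 members and not for Syt4, Syt5 or Syt7, which were all called lower in Htt-72Q. Syt1 has 2 starts among the stretches, of which the one at the outer end of the gene is shown. Among the stretches not shown, Syt2 held a CRE half-site at 1 start and an AP-1 site at the other, and Syt6 held an NPAS4-type site at 1 of 3 starts. A match is a description of letters and not of a bound factor.

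Total counts ran from 12.4 M to 27.5 M per library, and mitochondrial ribosomal RNA took 6.71% to 14.2% of them in control vector, 7.77% to 13.2% with Htt-25Q and 10.8% to 14.8% with Htt-72Q. That share was higher in Htt-72Q than in control vector in 4 of 4 preparations and than in Htt-25Q in 1 of 3, and its part in the results was not tested. Levels below are counts scaled to a common library size with TMM, a correction for composition (CPM), and comparisons between genes use the same value per kilobase of exon (RPKM). Fold changes are log2 with SE from the edgeR quasi-likelihood test on 14707 genes, where a gene is called when its Benjamini-Hochberg adjusted p over all of them is under 0.05. Reads of mouse Htt do not separate the groups and do not check the labels, since the introduced exon 1 need not count toward the gene: Htt lay at 128 to 213 CPM in Htt-72Q, 124 to 182 in Htt-25Q and 89.2 to 235 in control vector. Residuals of libraries with 1 preparation number ran together, and the libraries also fell into 2 sets by Ctnnd1 level that cross the groups and that no label names. Values within both are given below.

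Of the 10 members, 5 were lower in Htt-72Q than in control vector (Syt1, Syt4, Syt5, Syt7 and Syt10), none was higher and 5 were not called (Syt2, Syt3, Syt6, Syt9 and Syt11). The same 5 were lower in Htt-72Q than in Htt-25Q, with none higher. Over all genes tested, 13.7% were called lower and 9.44% higher in Htt-72Q against control vector, and 13.4% lower and 9.07% higher against Htt-25Q. With library totals in place of TMM those splits were 1702 lower and 1931 higher against control vector (2022 and 1389 with TMM), and 1690 and 1745 against Htt-25Q (1974 and 1334). The members' median log2 fold change was -0.46 against control vector and -0.34 against Htt-25Q, beside 0.03 over all genes in both. Both comparisons use the same Htt-72Q libraries. In Htt-25Q against control vector no member was called, and 0 of them reached an unadjusted p under 0.05. Over all genes, 0% were called lower or higher by edgeR and 0 were called by DESeq2. By edgeR 129 of 14707 genes had an unadjusted p under 0.05, fewer than the 1 in 20 that chance gives. The 0 calls do not show that these groups are equal.

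**Figure D1:**
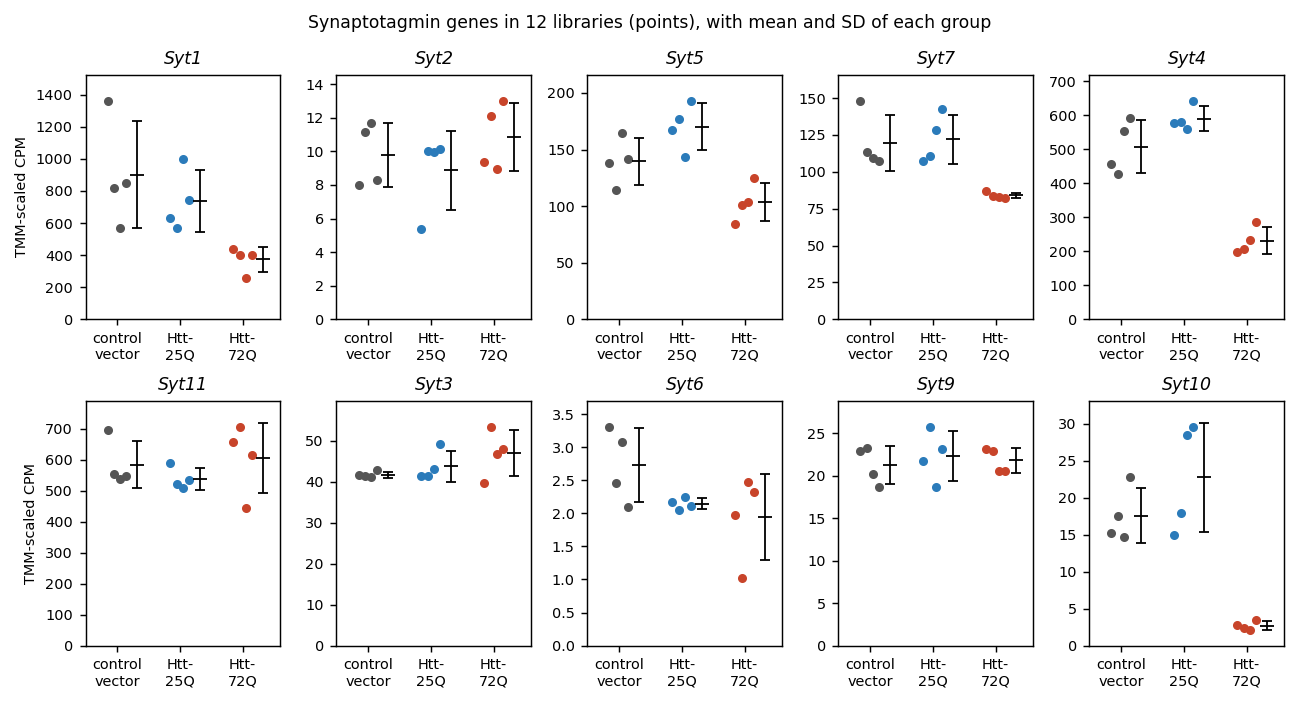
TMM-scaled CPM (vertical axis, from 0, a separate scale for each gene) of the 10 synaptotagmins in each library (points) of control vector, Htt-25Q and Htt-72Q, with the mean and SD of the 4 libraries of a group beside the points. The Htt-72Q points of Syt1, Syt4, Syt7 and Syt10 lie below every point of the other groups, while those of Syt2, Syt3, Syt6, Syt9 and Syt11 overlap them.

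**Figure D2:**
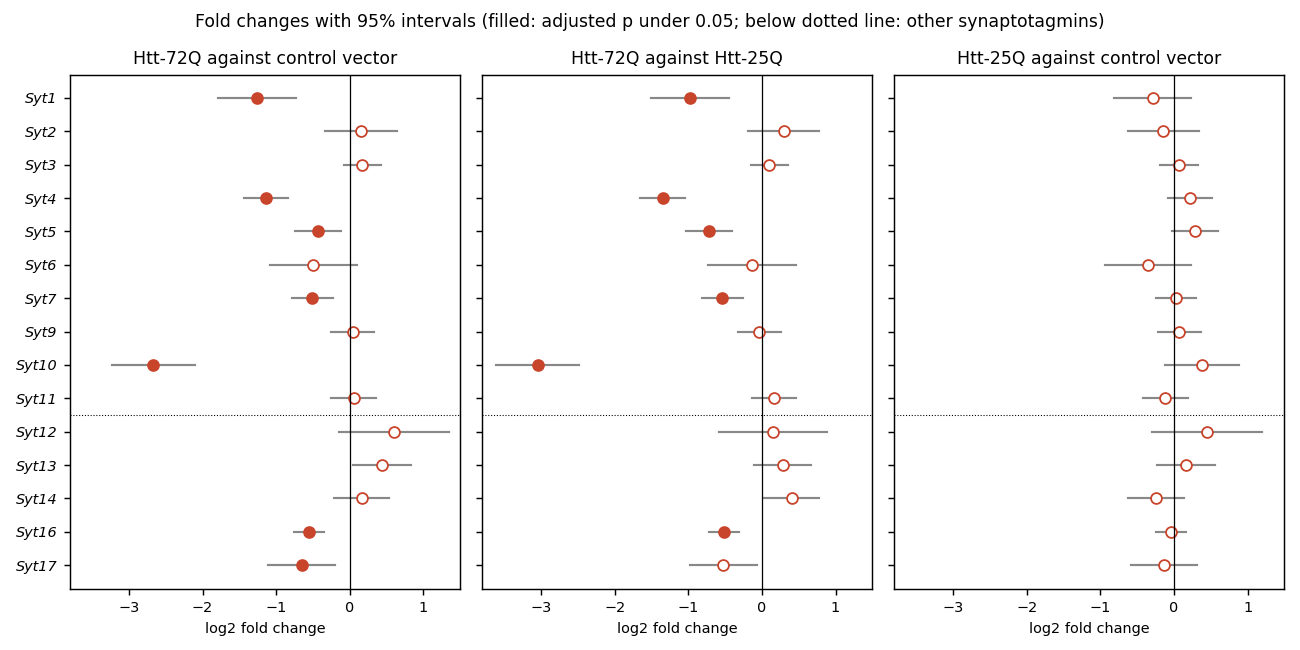
Log2 fold changes (horizontal axis) with 95% intervals of the 10 members and, under the dotted line, of the 5 other synaptotagmins that could be tested, in the 3 comparisons. Filled points mark an adjusted p under 0.05. Syt10 stands at -2.67 and -3.04 in the comparisons with Htt-72Q, and no point is filled in Htt-25Q against control vector.

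Among the fast sensor subgroup, Syt1 fell in Htt-72Q while Syt2 showed no called change. Syt1, the calcium sensor for synchronous transmitter release in forebrain neurons (ENSMUSG00000035864, GRCm38 chromosome 10, 108497650 to 109010982, minus strand), was counted at 1362, 821, 571 and 851 CPM in control vector libraries 1 to 4, at 634, 570, 1002 and 744 CPM in those with Htt-25Q and at 437, 400, 260 and 403 CPM in those with Htt-72Q. All 4 Htt-72Q libraries lay below the 8 others, although the control vector libraries themselves differed widely and control vector 1 was the highest. The log2 fold change of Syt1 was -1.27 ± 0.25 (SE, 4 libraries a group) against control vector, a level 58.4% lower, and -0.98 ± 0.25 against Htt-25Q. Leaving out 1 library at a time moved the first value between -1.453 and -0.998.

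Syt2, the fast sensor of brainstem and spinal synapses and of some inhibitory terminals (ENSMUSG00000026452, chromosome 1, 134646677 to 134762593, plus strand), was low, at 8.02 to 11.7 CPM in control vector, 5.37 to 10.1 with Htt-25Q and 8.93 to 13.0 with Htt-72Q. The groups overlapped. Its log2 fold change in Htt-72Q was 0.15 with a 95% interval of -0.33 to 0.64 against control vector and 0.30 with an interval of -0.19 to 0.78 against Htt-25Q.

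Syt5, a calcium-binding member found on synaptic and dense core vesicles (chromosome 7, 4539768 to 4546567, minus strand), was at 138, 114, 165 and 141 CPM in control vector libraries 1 to 4, at 167, 177, 144 and 193 CPM in those with Htt-25Q and at 83.9, 101, 104 and 125 CPM in those with Htt-72Q. Htt-72Q 4 lay above control vector 2, so those groups overlapped, while Htt-72Q and Htt-25Q did not. The log2 fold change was -0.43 ± 0.15 against control vector and -0.72 ± 0.15 against Htt-25Q. The call against control vector (adjusted p 0.0446) was lost in 4 of 10 other settings and on leaving out any of 8 of the 12 libraries (the control vector libraries 1, 3 and 4, the Htt-72Q libraries 1, 2 and 3, and the Htt-25Q libraries 1 and 2), with adjusted p up to 0.103, whereas the call against Htt-25Q was kept in all of them.

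Syt7, the slow sensor of asynchronous release and facilitation, also found on lysosomes and the cell surface (ENSMUSG00000024743, chromosome 19, 10389090 to 10453181, plus strand), was at 148, 113, 109 and 108 CPM in control vector libraries 1 to 4, at 107, 110, 128 and 143 CPM in those with Htt-25Q and at 86.7, 83.9, 82.8 and 82.6 CPM in those with Htt-72Q. The 4 Htt-72Q libraries lay close together (SD 1.89 CPM) and below the 8 others. The log2 fold change was -0.51 ± 0.13 against control vector, a level 29.8% lower, and -0.54 ± 0.13 against Htt-25Q.

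The pair with the substituted residue, Syt4 and Syt11, parted: Syt4 fell in Htt-72Q and Syt11 showed no called change. Syt4, a protein of dense core vesicles whose gene responds to neuronal activity (ENSMUSG00000024261, chromosome 18, 31437808 to 31447415, minus strand), was at 458, 428, 553 and 592 CPM in control vector libraries 1 to 4, at 576, 580, 559 and 642 CPM in those with Htt-25Q and at 197, 208, 233 and 287 CPM in those with Htt-72Q. The highest Htt-72Q library was below the lowest of the others. The log2 fold change was -1.14 ± 0.14 against control vector, a level 54.5% lower, and -1.35 ± 0.14 against Htt-25Q.

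Syt11, a regulator of vesicle endocytosis (ENSMUSG00000068923, chromosome 3, 88744700 to 88775164, minus strand), was at 697, 554, 537 and 548 CPM in control vector libraries 1 to 4, at 589, 523, 510 and 533 CPM in those with Htt-25Q and at 656, 705, 444 and 614 CPM in those with Htt-72Q. Htt-72Q held both the highest and the lowest of the 12 values. The log2 fold change in Htt-72Q was 0.05 (95% interval -0.25 to 0.35) against control vector and 0.17 (-0.13 to 0.47) against Htt-25Q. Within a library, the RPKM ratio of Syt4 to Syt11 was 0.876 to 1.44 in control vector, 1.31 to 1.61 with Htt-25Q and 0.393 to 0.701 with Htt-72Q, a ratio that no scaling between libraries can move.

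Among the 4 cysteine-linked members, Syt10 fell and Syt3, Syt6 and Syt9 showed no called change. Syt10, the calcium sensor for IGF-1 secretion in olfactory bulb neurons, also known as a gene raised by seizures (ENSMUSG00000063260, chromosome 15, 89782393 to 89841860, minus strand), was at 15.2, 17.5, 14.7 and 22.8 CPM in control vector libraries 1 to 4, at 14.99, 17.9, 28.5 and 29.6 CPM in those with Htt-25Q and at 2.82, 2.46, 2.07 and 3.53 CPM in those with Htt-72Q. In reads these were 26 to 73 counts in Htt-72Q and 284 to 762 in the 8 other libraries. Each Htt-72Q library stood far under the lowest of the others. The log2 fold change was -2.67 (95% interval -3.23 to -2.11) against control vector, a 6.36-fold lower level, and -3.04 (-3.61 to -2.48) against Htt-25Q, an 8.25-fold lower level. Leaving out 1 library at a time gave -2.82 to -2.53 and -3.20 to -2.91.

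Syt3, a plasma membrane and postsynaptic member with a role in AMPA receptor removal (ENSMUSG00000030731, chromosome 7, 44384102 to 44400187, plus strand), was at 41.7, 41.4, 41.0 and 42.7 CPM in control vector libraries 1 to 4, at 41.4, 41.4, 43.0 and 49.2 CPM in those with Htt-25Q and at 39.7, 53.3, 46.8 and 48.0 CPM in those with Htt-72Q. The control vector libraries were nearly equal, and the Htt-72Q libraries ran from the lowest to the highest value of the 12. Its log2 fold change in Htt-72Q was 0.17 (95% interval -0.08 to 0.42) against control vector.

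Syt9, a member linked to regulated secretion (chromosome 7, 107370728 to 107548656, plus strand), was at 18.6 to 23.3 CPM in control vector, 18.7 to 25.7 with Htt-25Q and 20.6 to 23.2 with Htt-72Q. The 3 ranges covered each other, and the log2 fold change in Htt-72Q was 0.04 (95% interval -0.26 to 0.33) against control vector and -0.03 (-0.33 to 0.26) against Htt-25Q. Syt6 (ENSMUSG00000027849, chromosome 3, 103575231 to 103645569, plus strand) was the lowest member, at 2.09 to 3.30 CPM in control vector, 2.05 to 2.25 with Htt-25Q and 1.02 to 2.47 with Htt-72Q, or 15 to 75 counts a library. Its log2 fold change against control vector was -0.49 with an interval of -1.09 to 0.10, which includes both 0 and the value of Syt7. Within a library the RPKM ratio of Syt10 to Syt3 was 0.607 to 0.902 in control vector, 0.612 to 1.121 with Htt-25Q and 0.0749 to 0.124 with Htt-72Q, and that of Syt10 to Syt9 was 1.43 to 2.64, 1.48 to 3.29 and 0.217 to 0.370.

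By ranges, the 4 Htt-72Q libraries lay wholly below the 4 control vector libraries for 4 of the 10 members (Syt1, Syt4, Syt7 and Syt10) and above them for 0, where 13.6% of all genes tested lay below and 10.1% above. Against Htt-25Q they lay below for 5 of 10 and above for 0, where 15.1% of all genes lay below and 11.6% above. In Htt-25Q against control vector no member had ranges apart, where 0.32% of genes lay below and 0.673% above. The members' fold changes in Htt-25Q against control vector ran from -0.36 ± 0.27 for Syt6 to 0.38 ± 0.24 for Syt10, and every adjusted p was 1. Their 95% intervals were as wide as -0.94 to 0.22 for Syt6 and as narrow as -0.18 to 0.32 for Syt3.

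The falls were present within each preparation number that held both groups. Between libraries of 1 preparation, Syt10 was lower in Htt-72Q than in control vector by log2 differences of -2.78 to -2.39 in 4 of 4 preparations and than in Htt-25Q by -2.98 to -2.36 in 3 of 3. For Syt4 these differences were -1.25 to -1.04 and -1.55 to -0.96. For Syt1 they were -1.64 to -1.04 and -1.31 to -0.51, and Syt7 gave -0.77 to -0.38 and -0.63 to -0.30. Syt5 gave -0.72 to -0.18 and -0.99 to -0.20. Syt2, Syt3, Syt6, Syt9 and Syt11 each took both signs against control vector. Against Htt-25Q, Syt2 was higher in 3 of 3 preparations (0.27 to 0.79) and so was Syt11 (0.15 to 0.43). Syt3, Syt6 and Syt9 took both signs there. In Htt-25Q against control vector, Syt1 differed by -1.10, -0.53 and 0.24 in preparations 22, 24 and 27_1. Syt5 was higher in 3 of 3 (0.02 to 0.63) and Syt11 lower in 3 of 3 (-0.24 to -0.08), and the remaining members took both signs.

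Within the 2 sets of libraries that differ in Ctnnd1, with 1 Htt-72Q library in the high set and 3 in the low one, Htt-72Q minus control vector was -2.79 and -2.74 for Syt10, -1.11 and -1.15 for Syt4, -1.76 and -1.02 for Syt1, -0.62 and -0.39 for Syt7 and -0.54 and -0.32 for Syt5. These 5 genes were lower in both sets. Syt11 took opposite signs, -0.46 in the high set and 0.25 in the low one, as did Syt2 (-0.12 and 0.24) and Syt9 (-0.06 and 0.09). Against Htt-25Q, with 1 Htt-25Q library in the low set, those 5 genes were again lower in both sets, Syt10 by -3.20 and -3.25. Syt6 (0.22 and -0.40), Syt9 (-0.19 and 0.25) and Syt11 (-0.30 and 0.37) took opposite signs there, while Syt2 and Syt3 were above 0 in both.

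**Figure D3:**
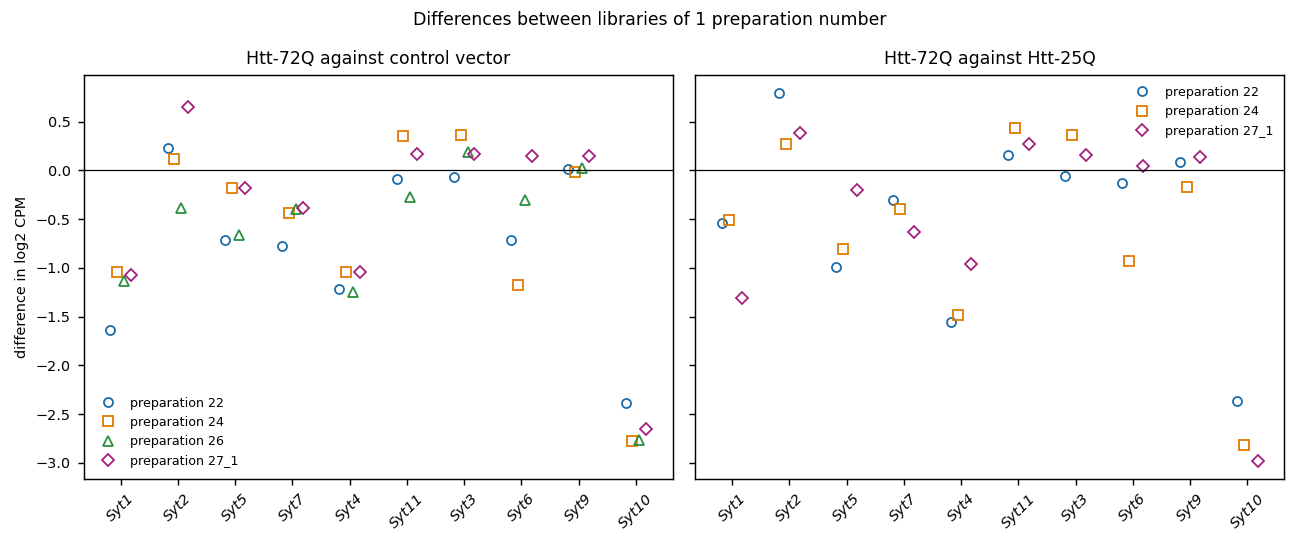
Differences in log2 CPM (vertical axis) between the Htt-72Q library and the control vector library (left, 4 preparation numbers) or the Htt-25Q library (right, 3 preparation numbers) of 1 preparation, for each of the 10 members. Every symbol of Syt1, Syt4, Syt5, Syt7 and Syt10 lies below 0, and Syt10 lies between -2.98 and -2.36 over both panels.

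Per length, 4 genes made up most of the summed level of the 10 members in control vector: Syt4 at 130 ± 19.9 RPKM (SD, n = 4), Syt11 at 112 ± 14.5, Syt1 at 108 ± 39.8 and Syt5 at 79.9 ± 11.8. These 4 neighbours overlapped in their ranges except for Syt5, at 65.5 to 94.3 RPKM, against Syt4, at 110 to 152, and Syt11, at 103 to 134. Next came Syt7 at 17.2 ± 2.75 RPKM, Syt3 at 13.4 ± 0.237 and Syt10 at 9.52 ± 2.004, then Syt9 at 5.34 ± 0.557, Syt2 at 1.28 ± 0.250 and Syt6 at 0.469 ± 0.0959, and none of these 6 ranges met its neighbour. Outside the 10, Syt16 stood at 47.7 ± 2.01 RPKM, between Syt5 and Syt7. With Htt-25Q the leading 4 were Syt4 at 151 ± 9.32 RPKM, Syt11 at 103 ± 6.72, Syt5 at 97.4 ± 11.8 and Syt1 at 88.5 ± 22.8, and the means of the other 6 came in the same order, from Syt7 at 17.5 ± 2.38 to Syt6 at 0.367 ± 0.0144. There the range of Syt3, at 13.3 to 15.8 RPKM, overlapped that of Syt7, at 15.4 to 20.5, and Syt10 was above Syt3 in Htt-25Q 3 and 4. In Htt-72Q the order began with Syt11 at 116 ± 21.8 RPKM, then Syt4 at 59.2 ± 10.3 and Syt5 at 59.2 ± 9.66, and Syt1 at 44.98 ± 9.43, and these last 3 overlapped. Syt3, at 15.1 ± 1.80 RPKM, stood above Syt7, at 12.1 ± 0.271, with ranges apart. Syt10, at 1.47 ± 0.337 RPKM there, had passed below Syt9, at 5.48 ± 0.360, and was level with Syt2, at 1.42 ± 0.262.

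The summed level of the 10 was 478 ± 50.7 RPKM in control vector, 491 ± 27.0 with Htt-25Q and 315 ± 33.7 with Htt-72Q. Syt11 supplied 23.5 ± 1.58% of it in control vector, 21.1 ± 2.02% with Htt-25Q and 36.7 ± 4.67% with Htt-72Q, with no called change in its own level. Syt4 supplied 27.4 ± 4.71%, 30.8 ± 1.35% and 18.9 ± 3.21%, Syt1 supplied 22.3 ± 6.15%, 17.9 ± 4.24% and 14.2 ± 2.19%, and Syt10 supplied 2.01 ± 0.454%, 2.49 ± 0.697% and 0.465 ± 0.0697%. Syt5 supplied 16.8 ± 2.83%, 19.8 ± 2.31% and 18.8 ± 2.97%.

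**Figure D4:**
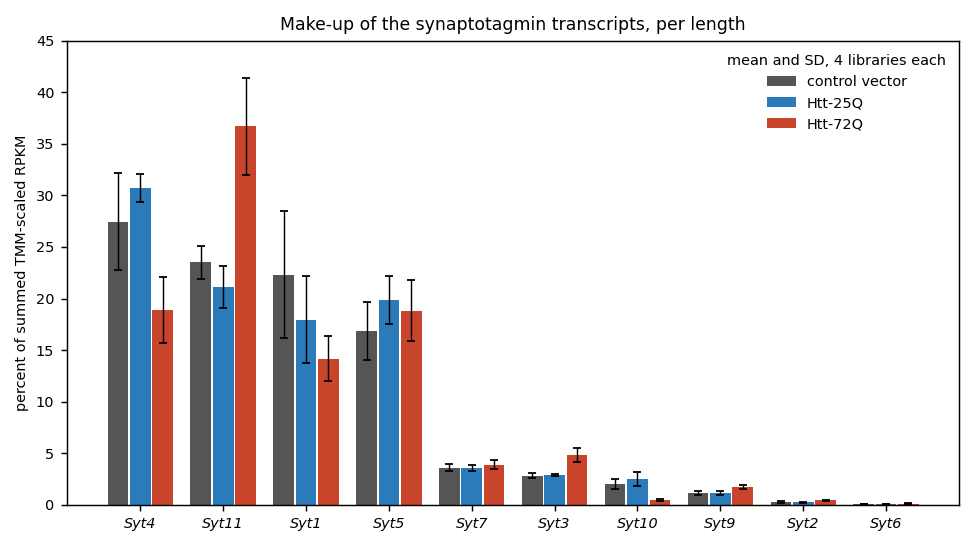
Share of the summed TMM-scaled RPKM of the 10 synaptotagmins (vertical axis, percent, from 0) taken by each gene in control vector, Htt-25Q and Htt-72Q, as the mean (bars) and SD (error bars) of 4 libraries. Syt11 takes the largest share in Htt-72Q, at 36.7%, where Syt4 took the largest in control vector, at 27.4%.

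Of the 7 synaptotagmin genes outside the choice, 5 could be tested, and Syt16 and Syt17 fell in Htt-72Q against control vector. That is 2 of 5 lower and 0 higher, where 13.7% of all genes were called lower, and 1 of 5 lower against Htt-25Q, where 13.4% were. The median of the 5 was above 0, at 0.16 and 0.15, but -0.13 against Htt-25Q without Htt-72Q 4. Syt16, a member without the calcium-binding residues, was at 122, 131, 134 and 129 CPM in control vector libraries 1 to 4, at 119, 124, 130 and 129 CPM in those with Htt-25Q and at 85.2, 86.0, 84.9 and 95.7 CPM in those with Htt-72Q. All 4 Htt-72Q libraries lay below the 8 others. Its log2 fold change was -0.55 ± 0.09 against control vector (edgeR adjusted p 0.00078) and -0.52 ± 0.09 against Htt-25Q (0.00131), and both calls were kept in all 10 other settings and on leaving out each library.

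Syt17, a member without a membrane-spanning segment, was at 7.15 to 11.1 CPM in control vector, 7.10 to 9.50 with Htt-25Q and 4.15 to 6.72 with Htt-72Q. Its log2 fold change was -0.65 ± 0.21 against control vector (edgeR adjusted p 0.0393) and -0.52 ± 0.21 against Htt-25Q (0.095, not called). The call against control vector was lost in 5 of 10 other settings and on leaving out any of 5 libraries (the Htt-72Q libraries 1 and 3, the control vector libraries 2 and 3, and the third of Htt-25Q), with adjusted p up to 0.114.

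Syt12, Syt13 and Syt14 were not called, at 0.60 ± 0.35, 0.44 ± 0.18 and 0.16 ± 0.18 in Htt-72Q against control vector. With preparation as a block, Syt12 was called higher there (0.62, edgeR adjusted p 0.0212), as it was with the replicate block (0.63, 0.0348) and without control vector 4 (1.001, 0.041), but in none of the other 8 fits or on leaving out any other library. Syt15 had 0 to 9 counts a library and Syt8 had 0 in all 12, where 3 counts, the limit that a count of 0 allows, correspond to 0.109 to 0.241 CPM. With no filter on low counts Syt15 was called higher in Htt-72Q than in Htt-25Q, on 0 to 9 counts a library against 0 to 1. That limit covers counting error only, while the SEs and 95% intervals also hold the spread between libraries.

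The proteins that work with synaptotagmins in release were followed as lists. Over all genes, the shares called in Htt-72Q against control vector were 13.7% lower and 9.44% higher, and with preparation as a block 17.2% lower and 13.4% higher. Of 23 SNARE fusion genes tested, 5 (21.7%) were lower in Htt-72Q than in control vector and 0 higher (median -0.15), and with that block 8 were lower and 0 higher. They include Stx1a, a plasma membrane SNARE, at -0.69 ± 0.10, and Stxbp5l and Stxbp6, which bind SNAREs, at -0.88 ± 0.17 and -0.93 ± 0.19. Of 21 priming and active zone genes, 8 (38.1%) were lower and 0 higher (median -0.46), and with the block 12 were lower and 1 higher. Among them Cadps2, a priming factor of dense core vesicles, was at -1.71 ± 0.16, Erc2, an active zone scaffold, at -0.77 ± 0.13, and Cplx2, a complexin that clamps and aids SNARE fusion together with Syt1, at -1.47 ± 0.25. Of 20 synaptic vesicle genes, 6 (30%) were lower and 0 higher (median -0.16), with Syn2 at -0.91 ± 0.12, Slc17a7, the vesicular glutamate transporter, at -1.39 ± 0.21, and Sv2b, which can bind Syt1, at -0.89 ± 0.13. Over all genes tested the median was 0.03.

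Of 15 genes tested for other proteins with tandem C2 domains, 5 (33.3%) were lower and 2 (13.3%) higher (median -0.35). The share called higher lay near the 9.44% of all genes. Rph3a, a Rab3 effector, was at -1.71 ± 0.18, Doc2a, a sensor of spontaneous and asynchronous release, at -1.25 ± 0.24 and Otof, the sensor of hair cells, at -2.17 ± 0.33. Of 13 genes of dense core vesicle cargo and processing, 3 (23.1%) were lower and 0 higher (median -0.22), and with the block 5 were lower and 1 higher, with Pcsk2 at -1.09 ± 0.14, Ptprn2 at -0.73 ± 0.17 and Scg2 at -0.95 ± 0.28. Of 19 activity-induced genes, 3 (15.8%, near the share of all genes) were lower and 0 higher (median -0.87), and with the block 10 were lower and 0 higher. The 3 were Inhba at -2.55 ± 0.30, Npas4 at -1.76 ± 0.56 and Egr3 at -1.83 ± 0.60. Without control vector 4 the median of the activity-induced genes was 0.18 and that of the dense core vesicle genes 0.05, and without Htt-72Q 4 they were -1.79 and -0.60. Against Htt-25Q, 13.4% of all genes were called lower and 9.07% higher. DESeq2 called 2224 of all genes lower there, where edgeR called 1974. The list calls were 5 of 23 lower in the SNARE list (8 with DESeq2) and 8 of 21 lower and 1 higher in priming and active zone. They were 4 of 20 lower in vesicle proteins, 4 of 15 lower and 2 higher in tandem C2, 4 of 13 lower in dense core vesicle genes and 7 of 19 lower in activity-induced genes. In Htt-25Q against control vector 0 genes of these lists were called.

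The genes whose levels ran most like Syt10 over the 12 libraries, by Pearson r of log2 CPM among 12348 genes, were Rgl1 (0.995), Cttnbp2 (0.993), Nr2f1 (0.993), Lrrtm1 (0.992) and Gria1 (0.992). These values are dominated by the shared gap between the 4 Htt-72Q libraries and the 8 others, and all points share library and depth. Mean levels of Gria1, an AMPA receptor subunit, were 163 CPM in Htt-72Q, 464 in Htt-25Q and 434 in control vector, beside 2.72, 22.7 and 17.6 CPM for Syt10. For Syt3, the member with the largest positive fold change in Htt-72Q against control vector, the nearest genes were Relb (0.801), Hyou1 (0.792), Cdipt (0.791), Rps28 (0.780) and H2-DMa (0.779). These are the highest of 12348 values over only 12 libraries, and whether they exceed chance was not tested.

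Summed markers of neurons were lower in the Htt-72Q libraries, though not every marker was. In bulk RNA, fewer cells of a type and less RNA per cell cannot be told apart. Over all genes tested, 13.7% were called lower and 9.44% higher in Htt-72Q against control vector, and 13.4% and 9.07% against Htt-25Q. Summed CPM of 8 general neuron markers was 6453 to 6767 in control vector, 5850 to 6633 with Htt-25Q and 4737 to 5236 with Htt-72Q, with 3 of 8 called lower against control vector and 2 of 8 against Htt-25Q. That of 8 excitatory neuron markers was 663 to 780, 684 to 893 and 318 to 450, with 6 and 7 of 8 lower, and that of 11 inhibitory neuron markers was 225 to 301, 189 to 322 and 112 to 175, with 4 and 5 of 11 lower. None of these markers was called higher, but against control vector 1 of the 8 general, 1 of the 8 excitatory and 2 of the 11 inhibitory markers had values above 0, among them Elavl4 at 0.31 ± 0.15, Slc17a6 at 0.37 ± 0.15 and Dlx2 at 0.94 ± 0.40, named after their values were seen. Gad1, at 108 to 150 CPM in control vector and 30.4 to 69.1 in Htt-72Q, was the largest part of the inhibitory sum in control vector. Gad2 (-0.44 ± 0.25) and Slc32a1 (-0.25 ± 0.27) were not called against control vector. Tubb3 and Map2 were the largest parts of the general sum in control vector. Of these, Tubb3 was called lower and Map2 (-0.27 ± 0.11) was not called. Summed astrocyte markers (8 genes) were 2695 to 3176, 2423 to 3086 and 2505 to 2916 CPM with 0 of 8 called in both, and oligodendrocyte lineage markers (9 genes) were 540 to 714, 504 to 628 and 520 to 634 with 0 of 9 called against control vector and 1 of 9 lower against Htt-25Q (Mog, at -1.23 ± 0.41). The 8 progenitor markers were at 159 to 195, 167 to 233 and 202 to 233 CPM. Of 7 tested, 1 was called higher against control vector (Top2a, at 0.35 ± 0.12) and 1 lower against Htt-25Q (Hes1, at -0.85 ± 0.27). These single calls, 14.3% of 7 progenitor and 11.1% of 9 oligodendrocyte lineage markers, lay near the shares of all genes. Microglial markers (8 genes) summed to at most 25.3 CPM, with Tmem119 at 0 in control vector and Htt-25Q. Most of that sum was Aif1 alone, at 2.77 to 12.1 CPM in control vector, 6.32 to 11.8 with Htt-25Q and 6.30 to 24.2 with Htt-72Q. Fibroblast and vascular markers (8 genes) summed to at most 22.0 CPM, with Pdgfrb at up to 17.9 in control vector. Pvalb, which marks an interneuron class that uses Syt2, was near its limit of detection, at 0.0881 to 0.757 CPM in control vector. These markers are not separate from the lists above: Snap25 also stands in the SNARE list, and Slc17a7, Slc17a6 and Slc32a1 in that of vesicle proteins. Bdnf stands in both the dense core vesicle and the activity-induced list. The part of cell composition in the synaptotagmin values was not tested.

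Exons of Syt4, Syt6, Syt7, Syt12 and Syt16 overlap those of genes on the opposite strand. The longest single overlaps were 282, 505, 384, 614 and 114 bases. The strand setting of the counting is not given in the sources used. The overlapping genes themselves held 0 to 28, 0 to 1, 0 to 12, 0 to 1 and 0 to 3 counts a library. Syt4 held 2924 to 14944, Syt6 15 to 75, Syt7 1039 to 3424, Syt12 70 to 269 and Syt16 1065 to 3482.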

How the data were processed

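Total RNA of 12 libraries was sequenced, 1 library per sample in 2 lanes merged by the authors, per the labels. Tools listed in the submitters' processing notes, without their settings, are featureCounts 1.45, Subread and STAR 2.0.4b, and the build is GRCm38. The authors deposited a read count per gene for each library, and beside it CPM (counts scaled to the total of the library) and RPKM (the same divided by exon length in kilobases). The deposited CPM and RPKM follow from the counts within 5.09e-10 and 3.20e-10, so the counts were used.

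Counts were fitted with edgeR 4.0.16 (R 4.3.3): TMM scaling, filterByExpr at a minimum count of 10, 1 quasi-likelihood fit of 12 libraries in 3 groups (9 residual degrees of freedom), two-sided, Benjamini-Hochberg over all 14707 genes tested, called under 0.05. No 2 libraries were duplicates (smallest chi-square per degree of freedom 9.00). The members, gene lists, rule for named genes and alternatives were chosen with earlier results of these data known. Named genes are the members, the other synaptotagmins, up to 3 called genes with the smallest p per list, and the 5 genes most like Syt10 and Syt3. Mouse promoters are from RefSeq (GRCm38.p6). The same fit was run on simulated counts in which 200 genes were changed, and its outcome is not given here.

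Residuals of same-preparation libraries correlated above 0.1 in 10 of 10 pairs (median r 0.282, against -0.072 in pairs sharing neither number), so preparation was used as a block in an alternative. Other alternatives were DESeq2 1.42.0, limma voom (limma 3.58.1), other scaling, filters and thresholds, a replicate block, the Ctnnd1 set, fits of 2 groups, and leaving out each library. Those for the other synaptotagmins and for the lists were added after seeing the data.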

Additional observations from a re-analysis of the deposited data

Results flagged for a closer look

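In 48 sets of 4 libraries (16 synaptotagmins with counts in 3 groups), 5 had a library whose distance from its nearest neighbour exceeded the 95% critical value of Dixon's ratio, and chance gives about 1 in 20. Syt2 was at 5.37 CPM in Htt-25Q 1, against 9.95 to 10.1 in the other Htt-25Q libraries. Control vector 1 was high in both Syt7, at 148 CPM against 108 to 113, and Syt11, at 697 CPM against 537 to 554. Syt16 was at 95.7 CPM in Htt-72Q 4, against 84.9 to 86.0. Syt15 was at 0.0466 CPM in Htt-25Q 2, a single read, against 0 in the other Htt-25Q libraries.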

How the results depend on the processing

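The calls of Syt1, Syt4, Syt7 and Syt10 were kept in both Htt-72Q comparisons under all 10 other fits and on leaving out each library, as was that of Syt5 against Htt-25Q, with the threshold at 0.05. Over 660 recomputed member fold changes, 626 kept direction and side of the threshold, 12 lost the call, all of them Syt5 against control vector, and 22 changed sign, all of them in genes not called. At an adjusted p under 0.01 in place of 0.05, 1885 genes and 3 members were called against control vector, where Syt5 and Syt7 were lost, and 1763 genes and 4 members against Htt-25Q, where Syt1 was lost, because the threshold is stricter. For Syt9 in Htt-72Q against Htt-25Q the value was 0.011 with upper-quartile scaling, 0.0353 with library totals, 0.0192 with the preparation block and 0.0128 with the Ctnnd1 set as covariate. For Syt7 in Htt-25Q against control vector it was -0.0699 with the preparation block. For Syt12 in Htt-72Q against Htt-25Q it was -0.126 with the Ctnnd1 set. The cause was not tested.

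On leaving out 1 library, values near 0 crossed it. In Htt-72Q against control vector Syt9 ran from -0.0251 to 0.0733 and Syt11 from -0.0519 to 0.168. In Htt-72Q against Htt-25Q Syt6 ran from -0.262 to 0.0711, Syt9 from -0.113 to 0.0395 and Syt12 from -0.131 to 0.291. In Htt-25Q against control vector Syt2 ran from -0.231 to 0.0349, Syt3 from -0.00132 to 0.0937, Syt7 from -0.0648 to 0.148 and Syt9 from -0.0049 to 0.148.

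The title numbers did not pair the libraries by themselves (10 of 12 same-numbered pairs above 0.1, lowest -0.492). With the replicate block 5, 5 and 0 members were called in the 3 comparisons, as without it, and 3807, 3739 and 0 genes, and 6 and 13 activity-induced genes were called against control vector and Htt-25Q. The 3 activity-induced calls against control vector became 1 without Htt-72Q 1, Htt-72Q 2 or control vector 4 and 5 without Htt-72Q 4. The 7 against Htt-25Q became 3 without Htt-72Q 1, Htt-72Q 2, Htt-25Q 3 or Htt-25Q 4. On leaving out 1 library, all genes called ran from 2671 to 3265 and from 2293 to 3902 in these comparisons. With every library they were 3411 and 3308. The shifts in activity-induced calls were not separated from this change over all genes. With the Ctnnd1 set as covariate 8 SNARE genes were called lower and 1 higher against control vector, and 5 activity-induced genes lower. With no filter 5 activity-induced genes were also lower, where 2077 of all genes were called lower and 1189 higher. The number of all genes called against control vector moved with the setting too, from 1885 to 4490. These list counts alone are therefore no result about the lists. The preparation block changed no member's call. Htt-25Q 4 is alone in preparation 27, so with that block it carries nothing about the group differences. Its residuals ran with those of control vector 4 and Htt-72Q 4 of preparation 27_1 (r 0.425 and 0.414), which the block treats as unrelated to it. The low counts of Syt6, Syt10 in Htt-72Q and Syt15 limit what depth can show for them.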
